A study of Mus musculus with 8 samples.

Results

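Glycolysis and gluconeogenesis enzymes, with the enzymes that control entry of pyruvate into the mitochondrion, were followed as 33 genes chosen by symbol, out of 47643 genes in the count files. They comprised 19 genes of glycolysis and its regulators, 7 of gluconeogenesis and fructose use, and 7 of the pyruvate dehydrogenase complex and its kinases. All 33 were matched to an Ensembl gene and all 33 passed the filter on low counts that left 13829 genes for testing. The samples were whole kidneys of mice, 4 conditional knockout (cKO) and 4 wild type (WT). The cKO mice carried Six2-Cre and Cox10-fl/fl, that is both Cox10 alleles flanked by recombination sites and a recombinase driven by Six2, a gene of nephron progenitors. The labels name neither Cre nor a floxed allele for the WT mice. Within each group replicates 1, 3 and 4 were 3 months old and replicate 2 was 2.5 months old. Polyadenylated RNA was sequenced from stranded libraries, and the question was how loss of Cox10 in the nephron epithelium changed these genes.

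Glycolysis turns glucose into pyruvate in the cytosol and yields ATP without oxygen, while gluconeogenesis runs the pathway backwards through a few enzymes of its own. In the kidney the proximal tubule makes glucose and does little glycolysis, and the distal nephron and collecting duct use glucose. Pyruvate either becomes lactate or enters the mitochondrion, where pyruvate dehydrogenase turns it into acetyl-CoA, a step that pyruvate dehydrogenase kinases switch off by phosphorylation. Cox10 makes a precursor of heme A, the cofactor of cytochrome c oxidase, so cells without it cannot assemble that complex of the respiratory chain.

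Promoters are shown for the glycolytic and the gluconeogenic member with the largest passing change in each direction, Hk2 and Pfkfb2 among the glycolytic genes and Pck2 and Pcx among the gluconeogenic genes. Each is the 250 bases before the most upstream RefSeq start on GRCm38.p6, read 5′ to 3′ on the strand of the gene. Hk2 lies at chr6:82774455-82774704 on the minus strand, Pfkfb2 at chr1:130716049-130716298 on the minus strand, Pck2 at chr14:55540016-55540265 on the plus strand and Pcx at chr19:4510222-4510471 on the plus strand. Capitals mark the motifs that were searched on both strands.
Hk2: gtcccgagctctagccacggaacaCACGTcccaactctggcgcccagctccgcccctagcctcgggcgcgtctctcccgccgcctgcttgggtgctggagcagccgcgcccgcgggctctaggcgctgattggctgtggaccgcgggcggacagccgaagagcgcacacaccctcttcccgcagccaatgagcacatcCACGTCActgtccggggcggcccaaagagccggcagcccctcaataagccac
Pfkfb2: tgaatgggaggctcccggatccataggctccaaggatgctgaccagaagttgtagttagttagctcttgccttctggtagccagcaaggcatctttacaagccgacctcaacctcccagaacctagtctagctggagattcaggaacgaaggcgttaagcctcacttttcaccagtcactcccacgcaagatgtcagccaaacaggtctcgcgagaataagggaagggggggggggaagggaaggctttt
Pck2: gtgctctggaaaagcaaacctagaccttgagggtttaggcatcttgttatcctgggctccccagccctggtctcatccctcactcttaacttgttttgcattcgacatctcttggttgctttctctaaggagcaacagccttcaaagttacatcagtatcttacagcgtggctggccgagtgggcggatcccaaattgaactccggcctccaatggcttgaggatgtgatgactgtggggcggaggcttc
Pcx: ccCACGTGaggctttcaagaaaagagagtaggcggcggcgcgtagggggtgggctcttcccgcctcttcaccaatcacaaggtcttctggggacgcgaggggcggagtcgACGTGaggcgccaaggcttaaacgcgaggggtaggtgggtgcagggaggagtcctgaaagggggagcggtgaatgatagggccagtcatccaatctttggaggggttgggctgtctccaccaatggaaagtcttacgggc
The motifs were ACGTG, the core of the hypoxia response element, CACGTG, an E-box that holds ACGTG on both strands, TGACG, part of the cAMP response element, GATGCAA, the core of a C/EBP-ATF element, AAAGTCC, part of an HNF4 site, and GTAAACA, a forkhead site. The Hk2 window held 2 matches to ACGTG, 1 of which overlapped its match to TGACG. The Pcx window held 1 CACGTG and, counting both strands of it, 3 matches to ACGTG. The windows printed for Pck2 and Pfkfb2 held no match to these letters, but RefSeq windows of the other Pfkfb2 starts did, with 1 ACGTG in one and 2 ACGTG, 1 CACGTG and 1 TGACG in another that overlaps the printed window. Of all 32851 RefSeq windows of that length, 16.6% held ACGTG, 6.02% CACGTG, 17.8% TGACG, 2.19% GATGCAA, 3.58% AAAGTCC and 3.17% GTAAACA. Of the 53 windows of the 33 genes, 18 held ACGTG, 7 CACGTG, 12 TGACG, 2 GATGCAA, 0 AAAGTCC and 1 GTAAACA. Windows of 1 gene can overlap, and a match is a description of the letters and not of binding.

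Depth was 9454830 to 14837448 counts in the cKO libraries and 9731334 to 15838026 in the WT libraries. Cox10 itself did not separate the groups, with 10.9 to 22.3 CPM (counts scaled to a common library size) in cKO and 19.2 to 24.6 CPM in WT. The counts cover the whole gene, the floxed stretch is not named, and cells outside the Six2 lineage keep the gene, so this value does not check the genotype labels. On the first principal component, with 66.0% of the variance, the groups stood apart, and WT 1 stood apart from the other libraries on the second, with 11.2%. The sex of the mice is not in the labels, and reads of 4 Y-linked genes were present in cKO 3 and in WT 2, WT 3 and WT 4 and absent from the other 4 libraries. Genotype was therefore unbalanced with respect to these reads, and each passing gene of the 33 is given again below in a fit that includes them as a term.

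Of the 33 genes 10 passed the threshold, an adjusted p of 0.05 over all tested genes in edgeR's quasi-likelihood test, or 30.3%. Across all 13829 tested genes 16.7% passed. Hk2, Pfkp, Pck2 and Pdk4 were higher in cKO kidneys, which is 4 genes against 9.57% of all genes passing in that direction. Hk2 entered the test only through its cKO level, and without it 3 of 32 genes were higher, or 9.38%. Pfkfb2, Aldoc, Pcx, G6pc, Slc37a4 and Pdk3 were lower, which is 6 genes against 7.14% of all genes. The cKO libraries did not overlap the WT libraries for 17 of the 33 genes (22.6% of all genes), 4 above and 13 below, whereas 13.1% of all genes were entirely above and 9.56% entirely below. The median log2 fold change, cKO over WT, was -0.19 over the 33 genes and -0.01 over all tested genes. By class, 4 of 19 glycolytic, 4 of 7 gluconeogenic and 2 of 7 pyruvate dehydrogenase genes passed. In bulk tissue fewer cells of a type and less RNA per cell cannot be told apart. The labels number the replicates and say no more of the mice they came from, so p-values measure the spread between these libraries. A gene that did not pass is not thereby shown to be equal in both groups.

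**Figure D1:**
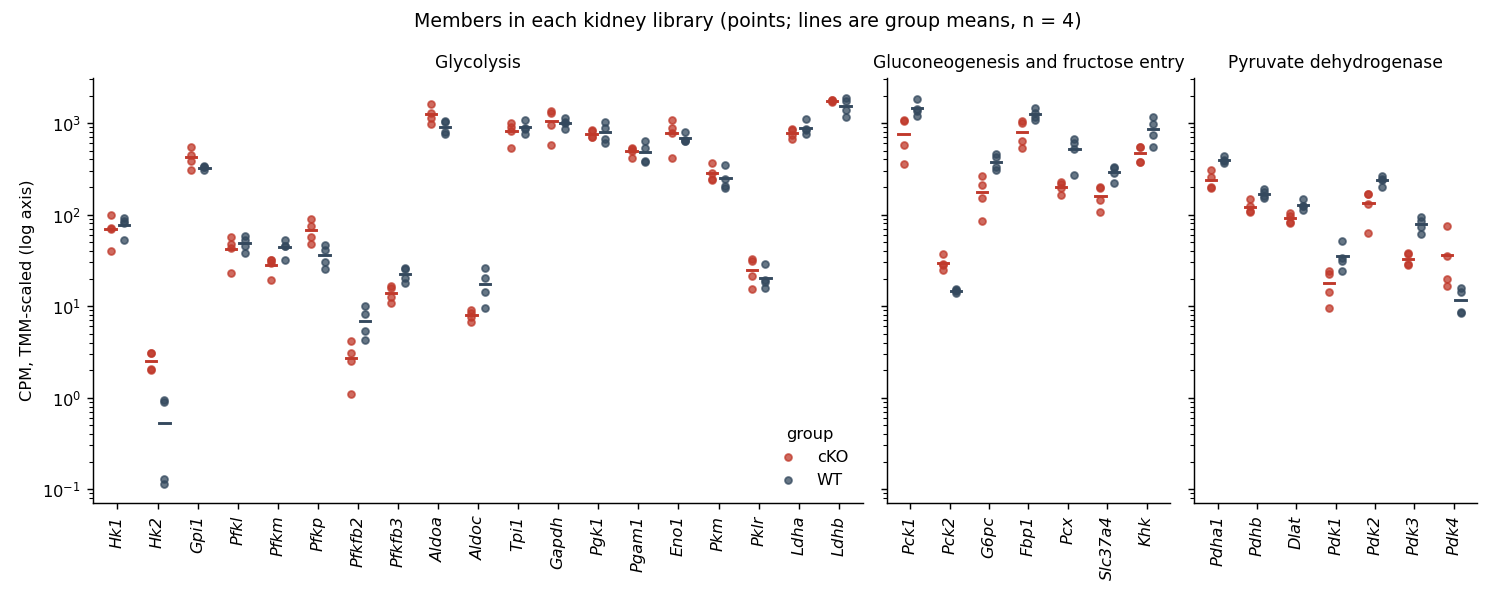
CPM of each gene in each library on a log axis, with libraries scaled by TMM, with cKO left of WT for each gene and a line at each group mean (n = 4). Pck1, G6pc, Fbp1, Pcx and Slc37a4 lie lower in all 4 cKO libraries than in any WT library, Pck2 and Pdk4 lie higher, and the abundant glycolytic genes from Tpi1 to Ldhb overlap.

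Glycolysis showed no common direction. Of its 19 genes 10 had a positive and 9 a negative log2 fold change, with a median of 0.02. The 4 that passed, against 16.7% of all tested genes, were isozymes or regulators of low to moderate level. Hk2 and Pfkp rose, Pfkfb2 and Aldoc fell, and the abundant enzymes that carry most of the pathway's RNA did not pass.

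Hexokinase traps glucose in the cell, and Hk2 is the inducible isozyme of muscle, fat and many tumours. Hk2 stood at 2.08, 3.05, 1.99 and 3.07 CPM in cKO 1 to 4, against 0.949, 0.115, 0.898 and 0.129 CPM in WT 1 to 4, from 34, 28, 28 and 47 counts in cKO and 11, 1, 11 and 2 counts in WT. All 4 cKO libraries were above all 4 WT libraries, and the WT libraries were split between a pair near 0.9 and a pair near 0.1 CPM. The log2 fold change was 2.25 (SE 0.59, edgeR adjusted p = 0.0227), a 4.75-fold difference with a 95% interval of 1.99 to 11.7. Hk2 passed the low-count filter through the cKO group, where 4 libraries reached its cutoff against 2 in WT, so it could be tested only because it was high there. Hk1, the constitutive isozyme, was far more abundant, at 70.1 ± 24.6 CPM in cKO and 77.6 ± 17.7 CPM in WT (SD, n = 4 each), and did not pass (log2 fold change -0.15, adjusted p = 0.745). Per kilobase of transcript, Hk2 made up 3.08% ± 1.68 of the Hk1 and Hk2 level in cKO and 0.474% ± 0.379 in WT (SD, n = 4 each).

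Phosphofructokinase commits sugar to glycolysis and is built from liver-type (Pfkl), muscle-type (Pfkm) and platelet-type (Pfkp) subunits. Pfkp stood at 47.3, 56.7, 90.2 and 74.4 CPM in cKO 1 to 4, against 46.5, 25.6, 41.3 and 30.1 CPM in WT 1 to 4. The groups did not overlap, but cKO 1 was barely above WT 1. The log2 fold change of Pfkp was 0.90 (SE 0.26, edgeR adjusted p = 0.0374). Pfkm ran the other way at 28.2 ± 6.01 CPM in cKO and 43.8 ± 8.86 CPM in WT (SD, n = 4 each), without passing (log2 fold change -0.63, adjusted p = 0.0797), and Pfkl was at -0.19 with adjusted p = 0.655. As a share of the summed level per kilobase, Pfkp was 33.6%, 51.6%, 47.6% and 41.3% in cKO 1 to 4, against 24.6%, 22.4%, 25.1% and 20.8% in WT 1 to 4. Pfkm was the most abundant of these subunits in each WT library at 39.8% to 44.7%, and held 23.7% to 32.7% in cKO. Both shares separated the groups completely, while that of Pfkl overlapped at 30.0% ± 5.51 in cKO and 35.5% ± 1.34 in WT.

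Pfkfb2 and Pfkfb3 encode bifunctional enzymes that make and break down the sugar bisphosphate that activates phosphofructokinase and restrains fructose bisphosphatase. Pfkfb2, whose promoter is printed above, was at 4.15, 2.50, 3.06 and 1.11 CPM in cKO 1 to 4, against 5.35, 4.25, 10.04 and 8.21 CPM in WT 1 to 4. Each cKO library was below each WT library, with a narrow gap between cKO 1 and WT 2. Its log2 fold change was -1.36 (SE 0.41, edgeR adjusted p = 0.0427). Pfkfb3 was also below WT in every cKO library, at 10.7 to 16.5 CPM in cKO and 17.8 to 26.2 CPM in WT, and fell just short of the threshold (log2 fold change -0.69, adjusted p = 0.0547).

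Aldolase splits the sugar bisphosphate into 3-carbon units. Aldoc, the brain-type isozyme, was at 7.57, 8.49, 6.69 and 9.14 CPM in cKO 1 to 4, against 26.2, 20.4, 14.2 and 9.64 CPM in WT 1 to 4. The cKO libraries were close together and all below WT, although WT 4 was only just above them. Its log2 fold change was -1.14 (SE 0.30, edgeR adjusted p = 0.0245). Aldoa, the isozyme of muscle and most tissues, was at 967 to 1629.7 CPM in cKO and 758 to 1057 CPM in WT, with overlap (log2 fold change 0.46, 95% interval -0.12 to 1.04, adjusted p = 0.252).

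The remaining steps from Gpi1 to lactate dehydrogenase did not pass. Gapdh, which oxidises glyceraldehyde phosphate, was at 581 to 1344 CPM in cKO and 867 to 1130.3 CPM in WT, and its log2 fold change was 0.06 with a 95% interval of -0.60 to 0.72. Gpi1 (phosphoglucose isomerase, 0.37), Tpi1 (triose phosphate isomerase, -0.14), Pgk1 (phosphoglycerate kinase, -0.07), Pgam1 (phosphoglycerate mutase, 0.02) and Eno1 (enolase, 0.21) had adjusted p values between 0.302 and 0.960. Gapdh, Pgk1, Pgam1 and Eno1 held fractional counts in all 8 libraries, which mark reads shared with other genes or copies, and their values are uncertain to that extent. Pkm and Pklr, the general and the liver-type pyruvate kinases, were at 0.18 and 0.30, and Ldha and Ldhb, the subunits of lactate dehydrogenase, at -0.19 and 0.19, all log2 fold changes cKO over WT. On the scale of CPM per kilobase Ldhb was the most abundant of the 33 genes, at 1352 in cKO and 1187 in WT, and Hk2 the least abundant, at 0.462 in cKO and 0.0948 in WT. The Ldhb share of lactate dehydrogenase overlapped, at 76.0% ± 2.37 in cKO and 70.6% ± 3.25 in WT (SD, n = 4 each), and so did the Pklr share of pyruvate kinase, at 7.05% ± 2.50 in cKO and 6.51% ± 1.03 in WT.

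**Figure D2:**
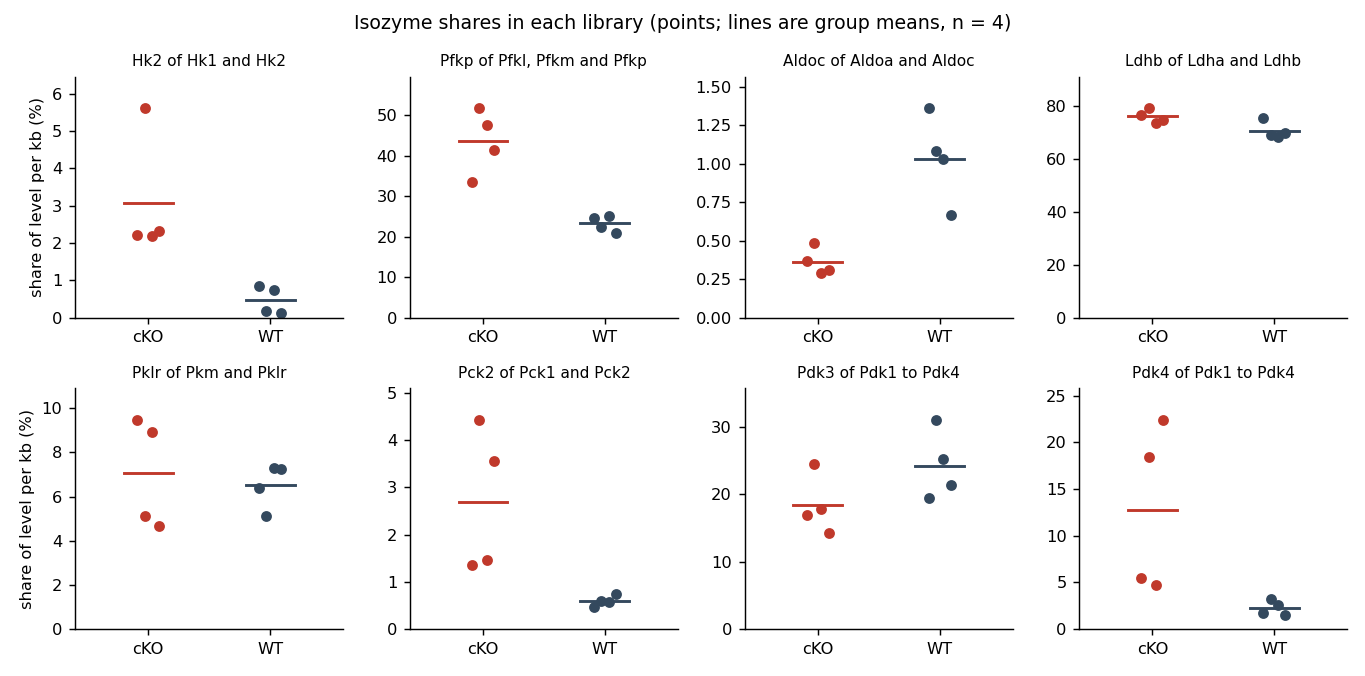
Share of each isozyme in the summed level per kilobase of its family (%), with 1 point per library, cKO left of WT, and a line at the mean (n = 4). The shares of Hk2, Pfkp, Pck2 and Pdk4 are higher in every cKO library than in any WT library, that of Aldoc is lower, and those of Ldhb, Pklr and Pdk3 overlap.

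Markers of cells outside the proximal tubule also moved with genotype, in both directions. For comparison, 9.57% of all tested genes passed higher in cKO and 7.14% lower. Of 7 tested collecting duct markers 4 were higher and 1 lower in cKO, and the list summed to 1281 to 2966 CPM in cKO and 536 to 886 CPM in WT. Of 7 tested leukocyte markers 5 were higher (309.9 to 602 CPM summed in cKO, 92.4 to 154 CPM in WT), and all 5 fibroblast markers were higher (301 to 500.0 CPM in cKO, 74.7 to 119 CPM in WT). Lyz2 made up most of the leukocyte sum in each cKO library (219 to 532 CPM), and Itgam entered the test only through its cKO level. The leukocyte marker Csf1r ran the other way without passing (log2 fold change -0.64, edgeR adjusted p = 0.156). Of 4 distal convoluted tubule markers 3 were lower (403 to 545 CPM summed in cKO, 648 to 1332 CPM in WT), of 5 endothelial markers 2 were lower (130.01 to 189 CPM in cKO, 159 to 226 CPM in WT), and of 5 thick ascending limb markers 1 was higher and 1 lower (1508 to 2636 CPM in cKO, 2859 to 5136 CPM in WT). All 3 tested red blood cell markers were lower (2.68 to 21.5 CPM summed in cKO, 21.8 to 433 CPM in WT). None of these markers was at 0 in every library. The part of these markers in the values of the glycolytic genes was not tested. With a term for Y-linked reads the 5 passing collecting duct markers missed the threshold (edgeR adjusted p = 0.0510 to 0.192). Adgre1, Dcn, Lum, Slc12a3 and Tek missed it as well. The other passing markers of these lists passed in that fit. Skeletal muscle markers, 0 of 5 passing, summed to 9.58 to 22.1 CPM in cKO and 11.8 to 65.6 CPM in WT. Adipocyte markers, 0 of 4 tested passing, summed to 12.0 to 85.4 CPM in cKO and 0.776 to 27.8 CPM in WT. Hepatocyte markers, 0 of 3 tested passing, summed to 292 to 1712 CPM in cKO and 261 to 458 CPM in WT.

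Calls in glycolysis leaned on single libraries, and each of the 4 was lost in some of the 8 fits that left out 1 library. Hk2 did not pass without WT 4, cKO 2 or cKO 4 (edgeR adjusted p = 0.0618, 0.0547 and 0.0735), nor Pfkp without WT 2, WT 3, WT 4, cKO 3 or cKO 4 (0.0843, 0.0590, 0.112, 0.105 and 0.101). Pfkfb2 did not pass without WT 3, WT 4, cKO 2, cKO 3 or cKO 4 (0.121, 0.114, 0.0914, 0.0745 and 0.0975), nor Aldoc without WT 2 or any 1 of cKO 1 to 4 (0.0527, 0.0529, 0.0506, 0.0662 and 0.0572). Pfkfb2 also missed the threshold under upper quartile scaling (0.0525) and library size scaling (0.0736). Exons of Pfkp overlap Pitrm1 on the opposite strand, and those of Pfkfb2 overlap Yod1 on the opposite and Gm29427 on the same strand. Among the genes that did not pass, Pfkm overlaps Senp1 and Tpi1 overlaps Spsb2, both on the opposite strand. The strand setting of the counting is not given in the sources used here, so some of their reads cannot be assigned with certainty.

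**Figure D3:**
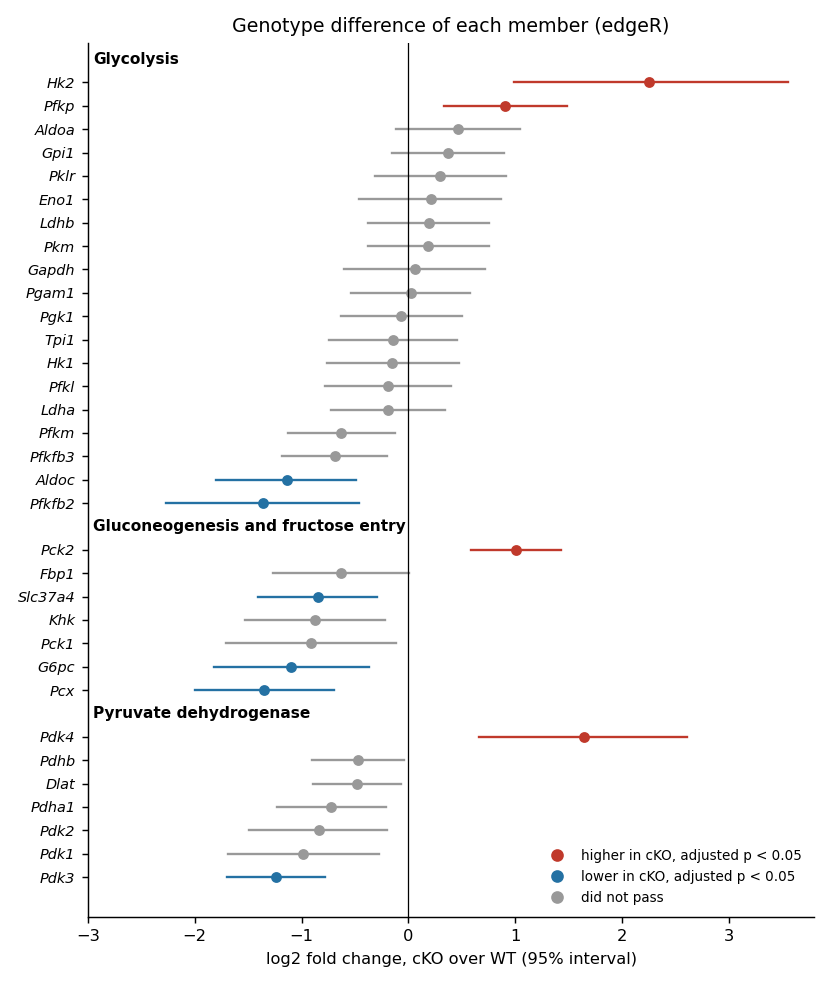
Log2 fold change, cKO over WT, of each of the 33 genes with its 95% interval (edgeR), coloured by whether it passed an adjusted p of 0.05 and grouped by pathway. Hk2 at 2.25, Pdk4 at 1.64, Pck2 at 1.01 and Pfkp at 0.90 lie to the right, and most gluconeogenic and pyruvate dehydrogenase genes lie to the left of 0.

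Gluconeogenesis was lower in cKO kidneys at 3 of its 7 genes, Pcx, G6pc and Slc37a4, and higher at 1, Pck2. Across all tested genes 7.14% passed lower and 9.57% higher. The median log2 fold change of the 7 was -0.87. Of the 7 genes 5, Pcx, G6pc, Slc37a4, Pck1 and Fbp1, had all 4 cKO libraries below all 4 WT libraries, and Pck2 alone had them above. Of all tested genes 9.56% were entirely below and 13.1% entirely above. Summed over the 7 genes, the libraries held 1679 to 3356 CPM in cKO and 4358 to 5366 CPM in WT.

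Pyruvate carboxylase, encoded by Pcx, makes oxaloacetate from pyruvate in the mitochondrion and opens the pathway from lactate to glucose. Pcx was at 229, 197, 218 and 164 CPM in cKO 1 to 4, against 271, 523, 670.4 and 599.8 CPM in WT 1 to 4. WT 1 was well below the other WT libraries and still above each cKO library. The log2 fold change was -1.35 (SE 0.30, edgeR adjusted p = 0.0115), or 0.391-fold.

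Phosphoenolpyruvate carboxykinase takes the next step, in the cytosol through Pck1 and in the mitochondrion through Pck2, and the isozymes ran in opposite directions. Pck2 was at 25.0, 28.6, 28.0 and 36.8 CPM in cKO 1 to 4, against 14.8, 14.6, 13.8 and 15.5 CPM in WT 1 to 4. WT libraries were tightly grouped and each cKO library lay above them. The log2 fold change of Pck2 was 1.01 (SE 0.19, edgeR adjusted p = 0.00561), a 2.02-fold rise with a 95% interval of 1.51 to 2.70. Pck1 was at 1056, 355, 1088 and 575 CPM in cKO 1 to 4, against 1828, 1412, 1372 and 1181 CPM in WT 1 to 4. Every cKO library was below every WT library, cKO 2 lowest, and the spread within cKO was wide. Pck1 did not pass (log2 fold change -0.91, 95% interval -1.71 to -0.12, adjusted p = 0.106). Per kilobase, Pck2 made up 1.35%, 4.43%, 1.46% and 3.55% of the carboxykinase level in cKO 1 to 4, against 0.465%, 0.590%, 0.575% and 0.750% in WT 1 to 4. Pck1 was the main isozyme in every library.

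Release of free glucose needs the phosphatase G6pc in the endoplasmic reticulum and its transporter Slc37a4, which brings in the phosphorylated sugar. G6pc was at 265, 84.1, 209 and 152 CPM in cKO 1 to 4, against 309, 457, 424 and 327 CPM in WT 1 to 4. Slc37a4 was at 194, 107, 198 and 143 CPM in cKO 1 to 4, against 219.7, 334, 285 and 319.5 CPM in WT 1 to 4. For both genes cKO 2 was lowest and no cKO library reached the WT range. The log2 fold change was -1.10 for G6pc (SE 0.33, edgeR adjusted p = 0.0434) and -0.85 for Slc37a4 (SE 0.26, edgeR adjusted p = 0.0436). Fbp1, fructose bisphosphatase, was at 529 to 1061 CPM in cKO and 1085 to 1457 CPM in WT, apart but not passing (log2 fold change -0.63, adjusted p = 0.156). Khk, ketohexokinase, the entry enzyme of fructose, was at 379 to 554 CPM in cKO and 543 to 1167 CPM in WT, which overlapped through WT 3 (log2 fold change -0.87, adjusted p = 0.0660).

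Among the cKO libraries cKO 2 and cKO 4 were furthest from WT in this pathway. The median log2 ratio of the 7 genes to their WT means was -0.52 in cKO 1, -1.39 in cKO 2, -0.54 in cKO 3 and -1.17 in cKO 4. In cKO 2, 5 of the 7 were at their lowest among cKO libraries, as were 22 of all 33 genes.

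Of 13 markers of the proximal tubule, the segment that makes glucose, 5 passed and were lower in cKO, against 7.14% of all tested genes. All 13 had a negative log2 fold change, with a median of -1.02. Those that passed were Slc34a1, Lrp2, Slc5a2, Slc5a12 and Acsm2. With a term for Y-linked reads none of these 5 passed (edgeR adjusted p = 0.0584 to 0.212). Their log2 fold changes in that fit were -1.23 to -1.06. A set of 12 of the 13 markers summed to 11191, 3770.1, 9985 and 5884 CPM in cKO 1 to 4, against 12347, 18624, 22243.5 and 22910.5 CPM in WT 1 to 4. As a percentage of that sum, Pcx was 3.06% ± 1.47 in cKO and 2.66% ± 0.350 in WT, G6pc 2.32% ± 0.207 in cKO and 2.07% ± 0.509 in WT, and Pck1 9.88% ± 0.699 in cKO and 8.43% ± 4.37 in WT (SD, n = 4 each). Fbp1 was 11.1% ± 2.13 in cKO and 7.04% ± 2.56 in WT, Slc37a4 2.25% ± 0.488 in cKO and 1.56% ± 0.264 in WT, and Khk 6.74% ± 2.29 in cKO and 4.95% ± 2.55 in WT, with means 1.58, 1.44 and 1.36 times as high in cKO. On this scale the groups overlapped for all 6 genes other than Pck2. Pck2 came to 0.472% ± 0.261 in cKO and 0.0821% ± 0.0263 in WT, with every cKO library above every WT library. Acsm2 was at 1119 CPM in WT 1 and 5295 to 6577 CPM in the other 3 WT libraries, and Slc7a13, a smaller part of the sum, at 2.50 CPM in WT 1 and 1022 to 1126 CPM in the others. WT 1 was also the only WT library without Y-linked reads. Leaving Acsm2 out of the sum, a choice made after seeing the data, gave ratios of cKO to WT means of 1.02 for Pcx, 0.997 for G6pc, 1.08 for Pck1, 1.44 for Fbp1, 1.29 for Slc37a4, 1.26 for Khk and 5.28 for Pck2. These ratios set a gene against its tissue markers and carry no test, and the part of the lower marker level in these results was not tested.

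**Figure D4:**
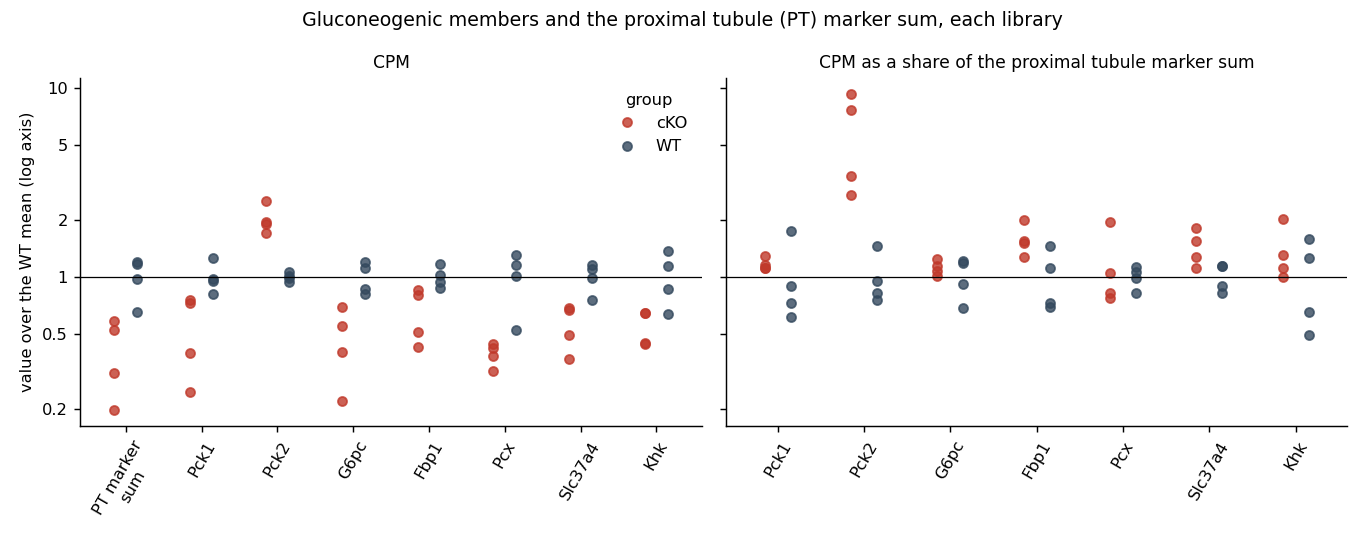
Gluconeogenic genes and the summed proximal tubule markers in each library, as CPM (left) and as a percentage of the marker sum (right), each divided by its WT mean on a log axis, cKO left of WT. As CPM, Pck1, G6pc, Fbp1, Pcx and Slc37a4 are lower in cKO together with the marker sum, and relative to that sum they overlap with WT while Pck2 stays above it.

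Pck2 and Pcx passed in each of the 8 fits that left out 1 library, whereas G6pc did not pass without WT 2, WT 3, WT 4, cKO 2, cKO 3 or cKO 4 (edgeR adjusted p = 0.0870, 0.0876, 0.0729, 0.0621, 0.0682 and 0.127). Slc37a4 passed in 1 of the 8, without WT 1, and its adjusted p in the other 7 was 0.0508 to 0.126. Both missed the threshold under upper quartile scaling (0.0530 for G6pc and 0.0557 for Slc37a4) and library size scaling (0.0910 for G6pc and 0.106 for Slc37a4), and Slc37a4 also without the count filter (0.0508).

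Of the 7 pyruvate dehydrogenase genes Pdk3 fell and Pdk4 rose in cKO kidneys, and the other 5 had negative log2 fold changes without passing. Across all tested genes 16.7% passed. The median log2 fold change of the 7 was -0.72, and 5 had every cKO library below every WT library, against 9.56% of all tested genes.

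The kinases inactivate the complex, each with its own regulation, and Pdk4 is the isozyme known to respond to fasting and fatty acids. Pdk3 was at 36.8, 28.2, 38.1 and 28.8 CPM in cKO 1 to 4, against 60.8, 93.7, 84.7 and 73.0 CPM in WT 1 to 4. The gap between the groups was wider than the spread within cKO. Pdk3 lies on the X chromosome, and Y-linked reads were not balanced between the groups. Its log2 fold change was -1.24 (SE 0.21, edgeR adjusted p = 0.00290), the smallest adjusted p of the 33 genes. Pdk4 was at 19.7, 34.9, 16.8 and 74.2 CPM in cKO 1 to 4, against 8.54, 15.8, 14.1 and 8.47 CPM in WT 1 to 4. All cKO libraries were above WT, but cKO 3 only slightly, and cKO 4 was the highest library by far. The log2 fold change was 1.64 (SE 0.44, edgeR adjusted p = 0.0279).

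Pdk2, the most abundant kinase per kilobase in every library, was at 63.2 to 169 CPM in cKO and 200.2 to 265 CPM in WT without passing (log2 fold change -0.84, adjusted p = 0.0709). Pdk1, a known target of hypoxia signalling, was at 9.60 to 24.3 CPM in cKO and 24.0 to 51.9 CPM in WT, with a log2 fold change of -0.99 and adjusted p = 0.0570. Of the kinase level per kilobase, Pdk4 made up 5.49%, 18.5%, 4.75% and 22.4% in cKO 1 to 4, against 1.65%, 3.19%, 2.55% and 1.51% in WT 1 to 4. The Pdk3 share overlapped at 18.4% ± 4.37 in cKO and 24.3% ± 5.13 in WT (SD, n = 4 each), although the Pdk3 level did not.

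The subunits of the complex itself did not pass. Pdha1, the X-linked catalytic subunit, was at 309, 193, 259 and 199.5 CPM in cKO 1 to 4, against 384, 369, 434 and 391 CPM in WT 1 to 4. No cKO library reached the lowest WT library, and the log2 fold change was -0.72 (SE 0.23, edgeR adjusted p = 0.0562). Pdhb and Dlat, the partner subunit and the acetyltransferase, had log2 fold changes of -0.47 and -0.48 (adjusted p = 0.118 and 0.102), again with every cKO library below WT. Exons of Pdha1 overlap Map3k15 on the opposite strand.

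Pdk3 passed whichever 1 library was left out. Pdk4 did not pass without WT 3, WT 4, cKO 2 or cKO 4 (edgeR adjusted p = 0.0640, 0.0779, 0.0575 and 0.0905), and without cKO 4 its log2 fold change was 1.02.

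Other genes of the same pathways, taken from lists, passed at shares of 18.2%, 26.7% and 14.3%, against 16.7% of all tested genes. The lists, like the 33 genes, were chosen with earlier results known. Of 16 further glycolytic genes 11 were tested. Eno2, neuronal enolase, was higher (log2 fold change 2.08, edgeR adjusted p = 0.0348) and Ldhd, the mitochondrial dehydrogenase of D-lactate, was lower (-2.28, adjusted p = 0.0135). Eno2 held 41, 34, 20 and 39 counts in cKO 1 to 4, against 9, 0, 12 and 8 in WT 1 to 4. Like Hk2, Eno2 entered the test only through its cKO level, and it is counted in the 18.2% above. Ldhd was at 141 to 262 CPM in cKO, and in WT at 176 CPM in WT 1 and 848 to 1423 CPM in the other 3, so WT 1 lay within the cKO range. Gapdhs and Pgk2, which are testis genes, were at 0 in every library. Of 15 tested genes of gluconeogenesis and of fructose and glycerol use, Fbp2, the muscle-type fructose bisphosphatase, was higher (1.44, adjusted p = 0.0390). Gk, glycerol kinase (-1.59, adjusted p = 0.00799), Glyctk, glycerate kinase (-1.20, adjusted p = 0.0156), and Gpd2, mitochondrial glycerol phosphate dehydrogenase (-1.01, adjusted p = 0.0472), were lower. Of 7 tested genes of the pyruvate carrier and the rest of the dehydrogenase system, Pdpr, a regulatory subunit of the pyruvate dehydrogenase phosphatase, was lower (-1.86, adjusted p = 0.0215). The mitochondrial pyruvate carrier genes Mpc1 and Mpc2 had log2 fold changes of -0.90 and -0.14 without passing (adjusted p = 0.0712 and 0.797).

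Regulators of gluconeogenesis passed at 7 of 17 genes, 1 higher and 6 lower, with a median log2 fold change of -0.80. Of all tested genes 16.7% passed, 9.57% higher and 7.14% lower. The list pools transcription factors and coactivators with insulin signalling genes such as Irs1 and Irs2, so its count and median give no direction of control. The coactivator Ppargc1a, which drives gluconeogenic and mitochondrial genes, was at 10.3 to 25.3 CPM in cKO and 30.4 to 54.7 CPM in WT (log2 fold change -1.35, edgeR adjusted p = 0.0123). Hnf4a, a nuclear receptor of proximal tubule and liver, was at 201 to 396 CPM in cKO and 459 to 759 CPM in WT (-0.99, adjusted p = 0.0366). The insulin receptor substrates Irs1 and Irs2 were lower by -1.81 and -1.79 (adjusted p = 0.0196 and 0.0117), with cKO below WT in every library. Ppara, a receptor for fatty acids known to induce Pdk4 in liver and muscle, was at -1.38 (adjusted p = 0.0374) with overlapping groups. Cebpb, a transcription factor of acute responses, was higher at 1.34 (adjusted p = 0.0355), also with overlap.

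Y-linked reads were present in 3 of 4 WT libraries and in 1 of 4 cKO libraries, so the comparison was repeated with them. With a term for these reads, 941 of all genes (6.8%) and 3 of the 33, Aldoc, Pck2 and Pdk3, passed in edgeR. In that fit Pck2 had a log2 fold change of 0.98 (adjusted p = 0.0330), Pdk3 one of -1.05 (adjusted p = 0.0211) and Aldoc one of -1.39 (adjusted p = 0.0170). The other 7 missed the threshold, with log2 fold changes of 1.92 for Hk2, 0.92 for Pfkp, -1.17 for Pfkfb2, -0.96 for Pcx, -0.92 for G6pc, -0.61 for Slc37a4 and 1.35 for Pdk4, and adjusted p of 0.0907 to 0.246. Of the 14 passing genes of the other pathway and regulator lists, 2 passed in that fit, Gk (-1.56, adjusted p = 0.0390) and Irs1 (-2.06, adjusted p = 0.0402), and the other 12 missed the threshold with adjusted p of 0.0548 to 0.331. Contrasts within the 4 libraries without and the 4 with these reads each rest on 1 library on one side and were added after seeing the data. Without Y-linked reads the log2 fold change was 1.02 for Pck2, -0.96 for Pdk3, -1.64 for Aldoc, 1.51 for Hk2, 0.36 for Pfkp and -1.04 for Pfkfb2. Among libraries with Y-linked reads it was 0.94 for Pck2, -1.14 for Pdk3, -1.13 for Aldoc, 2.34 for Hk2, 1.48 for Pfkp and -1.30 for Pfkfb2. For the other 4 genes the values without and with these reads were -0.46 and -1.46 for Pcx, -0.89 and -0.95 for G6pc, -0.57 and -0.66 for Slc37a4, and 2.33 and 0.40 for Pdk4. Since the groups of these 10 genes do not overlap, their signs could not differ between such contrasts. No gene of the 33 passed with so few libraries, where 0.868% of all genes passed without and 3.47% with these reads.

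The number passing changed with the fit, both among the 33 and over all genes. DESeq2 called 16 of the 33 and 22.9% of all genes. Leaving out WT 3 left 6 of the 33 and 10.2% of all genes, leaving out WT 4 left 4 and 9.17%, and leaving out cKO 4 left 3 and 8.25%. Without both WT 4 and cKO 4, whose kidneys have the later sample numbers in the file headers, 2 of the 33 passed, Aldoc and Pdk3, and 4.1% of all genes. Without the 2.5-month pair 2 passed, Pck2 and Pdk3, and 10% of all genes.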

How the data were processed

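The data are RNA sequencing counts of 8 mouse kidneys, 4 cKO and 4 WT, grouped by their titles. The authors deposited RSEM expected counts per Ensembl gene, not scaled, from reads aligned to mm10, and STAR and RSEM are named in the submitters' processing notes. For tool versions, gene annotation and strand option the sources used here give nothing. Of the 47643 identifiers 47224 were matched to GENCODE symbols.

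Expected counts were rounded, genes were kept by filterByExpr, which left 13829, and libraries were scaled with the TMM method (trimmed mean of M values). CPM use the scaled library sizes, and levels per kilobase divide by the longest coding transcript. Genotypes were compared by edgeR 4.0.16 (quasi-likelihood, robust, two-sided, R 4.3.3) with p-values adjusted over the 13829 genes by Benjamini-Hochberg. DESeq2 1.42.0 and limma 3.58.1 were alternatives, with other scalings and filters, terms for age, replicate number and Y-linked reads (at least 10 counts of 4 genes), and fits without single libraries. The steps were tested on simulated data. Equal replicate numbers were not treated as pairs, since residuals of same-numbered libraries correlated at -0.08, 0.28, 0.12 and 0.00. The closest replicates, WT 3 and WT 4, differed by more than sampling noise, with a chi-square of 16.0 per gene. Of the 33 genes 17 held fractional counts in some library, which mark reads shared with other genes, and 9 overlap exons of another gene.

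The 33 genes and the other lists were chosen with earlier results of these data known. Named genes are all 33 and up to 6 passing genes of each further list with the smallest adjusted p. Mpc1, Mpc2 and Cox10 are given for context beside that rule. Some listed genes count in the totals and are not named here. Depth was 9454830 to 15838026 counts. Promoter sequences are RefSeq's, on GRCm38.p6.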

Additional observations from a re-analysis of the deposited data

Results flagged for a closer look

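Outlying libraries were looked for in 92 groups of 4 values, CPM and isozyme shares, by the gap of the extreme library to its neighbour relative to the range of the group. Chance alone marks about 1 in 20 such groups, and 3 were marked. Eno1 was at 807 CPM in WT 1, against 630.2, 659 and 629 CPM in WT 2 to 4. The Hk2 share of hexokinase was 5.60% in cKO 2, against 2.21%, 2.18% and 2.33% in cKO 1, 3 and 4. The Pfkm share of phosphofructokinase was 44.7% in WT 4, against 40.6%, 40.1% and 39.8% in WT 1 to 3.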

How the results depend on the processing

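Of the 10 calls Pck2, Pcx and Pdk3 passed whichever 1 library was left out. Leaving out 1 library at a time gave 1155 to 3093 passing genes in all, 0 to 4 glycolytic, 2 to 4 gluconeogenic and 1 to 3 pyruvate dehydrogenase genes. Gluconeogenic genes passing fell to 2 under upper quartile and library size scaling. Library size scaling shifted the all-gene median log2 fold change by 0.159, turned the signs of Hk1, Tpi1 and Pgk1, and raised the share of calls that were higher in cKO to 77.2%, against 64.1% for upper quartile and 57.3% for TMM scaling. DESeq2 and the age term each called 5 pyruvate dehydrogenase genes, and DESeq2 added Pfkfb3, Pck1, Khk, Pdha1, Pdk1 and Pdk2 to the 10. The Y-linked read term left 941 genes in all and 1 in each class. Without the 2.5-month pair 1397 genes passed in all, with 0 glycolytic, 1 gluconeogenic (Pck2) and 1 pyruvate dehydrogenase gene (Pdk3). Without WT 4 and cKO 4, 568 passed in all, with 1 (Aldoc), 0 and 1 (Pdk3). Contrasts within Y-linked read classes gave 120 genes without and 480 with these reads, and 0 in every class. Both Pck2 and Pcx missed the threshold without WT 4 and cKO 4 (edgeR adjusted p = 0.0750 and 0.112), and Pcx also without the 2.5-month pair (0.0527). A replicate block called 2208 genes and 10 members, without Pfkfb2, Slc37a4 and Pdk4 and with Pfkm, Pdk1 and Pdk2, and the numbers were not shown to pair the libraries. The cause of these differences was not tested. Counting limits Hk2 most, with 137 counts over the cKO group and 25 over the WT group.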
